A study of Mus musculus with 5 samples.

Results

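This account covers 7 genes for proteins that work in or on mitochondria and that are linked to hypoxia: Bnip3, Bnip3l, Fundc1, Mgarp, Higd1a, Fam162a and Ak4. They were chosen by name, with earlier results of these data known, and all 7 were found among the 11564 genes of the deposited table. All 7 were among the 11534 genes that passed the filter on low values (a normalized count of at least 10 in at least 2 libraries). The samples are bulk RNA-seq libraries of CD8 T cells (cytotoxic lymphocytes) sorted from mice, with 3 libraries labelled PHD2-deltaT (described by the labels as PHD2 knockout cells) and 2 libraries labelled WT. The labels give no Cre driver, strain, age or treatment, and they do not say whether libraries of a group came from separate mice, so the p-values rest on the spread among 5 libraries, part or all of which may be technical.

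PHD2, encoded by Egln1, uses oxygen to hydroxylate the HIF alpha subunits, which marks them for VHL-dependent degradation; without it HIF accumulates and switches on genes that carry hypoxia response elements. Among the known HIF targets are genes that change how mitochondria are kept and used. BNIP3 and its sister NIX (encoded by Bnip3l) sit in the outer mitochondrial membrane and bind ATG8-family proteins of the autophagosome, so that the organelle is engulfed, a process called mitophagy. In CD8 T cells, BNIP3 and NIX are known for clearing mitochondria as effector cells turn into memory cells.

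The values are the normalized counts of the authors' table, which sum to between 19593220 and 20253007 per library. The whole reads inferred behind them number 10818543 to 15382255 per library. The count of the targeted gene was higher in the libraries labelled as knockout. Egln1 had 5447, 4327 and 4993 normalized counts in the libraries labelled PHD2-deltaT, against 1927 and 2182 in the libraries labelled WT. A count over the whole gene does not show whether single exons are missing, so this value leaves the deletion unchecked, and directions below refer to the labels as given. Cd8a, which encodes the alpha chain of the CD8 co-receptor, was abundant in both groups and averaged 16899 ± 1054 normalized counts in the PHD2-deltaT libraries and 16966 ± 739 in the WT libraries (SD, n = 3 and 2).

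In a fit over all genes (limma-trend on log2(value + 1), two-sided, Benjamini-Hochberg adjustment over 11534 genes, threshold 0.05), 6 of the 7 genes were higher in the libraries labelled PHD2-deltaT and Fundc1 did not pass. Of all genes tested, 2.97% were called higher and 1.02% lower. Because the 7 genes were chosen with earlier results of these data known, their count beside these shares is a description and not a test. In the same 6 genes every PHD2-deltaT value lay above every WT value, an order found in 16.0% of all genes tested. These are bulk libraries, in which fewer cells of a type and less RNA per cell cannot be told apart. The sizes fell into a high and a low range: Mgarp, Ak4 and Bnip3 were 19.2-fold, 7.35-fold and 6.70-fold higher by their group means, and Bnip3l, Higd1a and Fam162a were 1.81-fold, 1.59-fold and 1.48-fold higher. Ordered by log2 fold change among 11534 genes, Mgarp stood at place 1, Ak4 at place 8 and Bnip3 at place 12. Bnip3l, Higd1a and Fam162a stood at places 189, 302 and 410, and Fundc1 at place 4681. Mgarp, with 12.1 and 2.97 in the WT libraries, passed the filter on low values only through the PHD2-deltaT libraries, where it was high. Every gene of the deposited table has a value above 0 in each library, so genes with a value of 0 in any library lie outside this order.

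**Figure D1:**
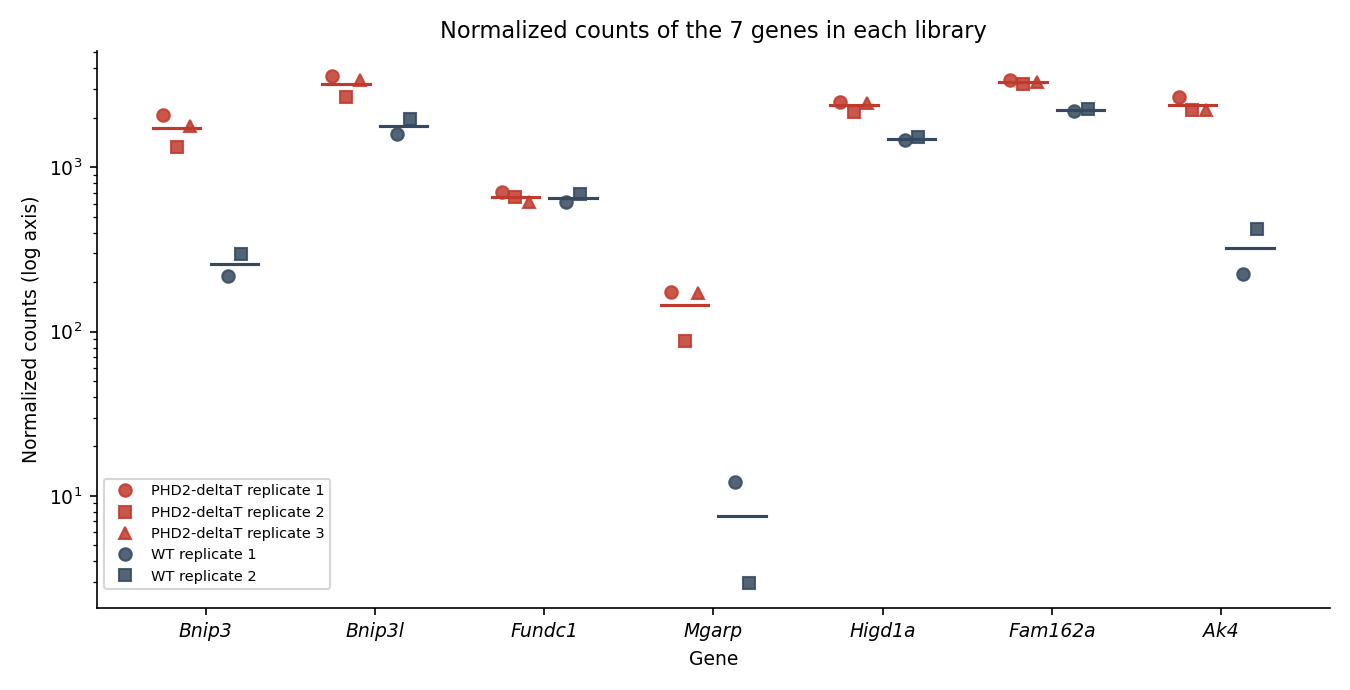
Normalized counts (log axis) of the 7 genes in the 3 PHD2-deltaT libraries (red) and the 2 WT libraries (blue-grey); points are libraries and bars are group means. The groups are apart in 6 genes and overlap in Fundc1, and Mgarp has both the lowest counts and the widest gap (144 ± 48.8 in PHD2-deltaT against 7.53 ± 6.44 in WT; mean ± SD, n = 3 and 2).

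HIF binds DNA at a short core, ACGTG or GCGTG, so the promoter windows of RefSeq (build GRCm38.p6, 250 bases before to 50 after the annotated start) were read for that core on both strands. Of the 7 genes, 6 matched an entry, and Bnip3l, which also rose, did not. Of those 6, 5 are genes that rose, and their windows are shown because each held at least 1 core. Capitals mark every ACGTG or GCGTG and their reverse complements CACGT and CACGC. Where matches share bases, as in CACGTG, they were counted as 1 stretch. Each line is read 5′ to 3′ on the gene's own strand.
Bnip3, chr7:138909457-138909756, minus strand: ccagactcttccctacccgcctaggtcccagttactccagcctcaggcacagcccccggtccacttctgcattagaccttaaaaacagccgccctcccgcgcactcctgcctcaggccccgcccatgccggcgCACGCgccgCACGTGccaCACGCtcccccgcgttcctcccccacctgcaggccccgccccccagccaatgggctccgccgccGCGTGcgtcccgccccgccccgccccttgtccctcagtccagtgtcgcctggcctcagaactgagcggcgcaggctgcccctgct
Ak4, chr4:101419039-101419338, plus strand: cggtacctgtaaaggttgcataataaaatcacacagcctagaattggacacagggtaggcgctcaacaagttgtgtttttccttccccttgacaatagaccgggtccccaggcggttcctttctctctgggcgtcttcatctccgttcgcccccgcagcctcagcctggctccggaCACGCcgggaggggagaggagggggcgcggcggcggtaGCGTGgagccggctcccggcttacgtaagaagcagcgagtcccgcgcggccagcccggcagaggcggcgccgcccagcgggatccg
Mgarp, chr3:51396498-51396797, minus strand: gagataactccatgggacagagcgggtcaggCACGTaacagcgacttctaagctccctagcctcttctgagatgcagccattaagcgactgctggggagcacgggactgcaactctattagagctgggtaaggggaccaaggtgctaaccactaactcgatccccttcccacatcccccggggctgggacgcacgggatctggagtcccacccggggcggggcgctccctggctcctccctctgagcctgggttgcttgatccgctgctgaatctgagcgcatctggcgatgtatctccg
Higd1a, chr9:121857747-121858046, minus strand: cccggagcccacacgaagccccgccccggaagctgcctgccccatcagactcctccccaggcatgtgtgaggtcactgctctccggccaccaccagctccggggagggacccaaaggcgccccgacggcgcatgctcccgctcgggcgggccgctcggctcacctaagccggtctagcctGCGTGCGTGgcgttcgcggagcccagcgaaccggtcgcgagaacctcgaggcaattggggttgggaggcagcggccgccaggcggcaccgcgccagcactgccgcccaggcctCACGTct
Fam162a, chr16:36071512-36071811, minus strand: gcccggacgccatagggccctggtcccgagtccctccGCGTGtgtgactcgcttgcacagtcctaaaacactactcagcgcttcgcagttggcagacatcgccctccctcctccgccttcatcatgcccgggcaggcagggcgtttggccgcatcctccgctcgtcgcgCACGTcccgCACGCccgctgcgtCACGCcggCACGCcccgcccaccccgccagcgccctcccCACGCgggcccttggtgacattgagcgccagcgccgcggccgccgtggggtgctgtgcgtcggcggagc

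Fam162a held 6 stretches, Bnip3 held 4, Higd1a and Ak4 held 2 each and Mgarp held 1. Counting the start as position 0, Bnip3 had a palindromic CACGTG that began at position -108, between CACGC cores that began at positions -117 and -99. Such cores are common: of 8752 genes of the deposited table with an entry (the first listed for each), 65.0% had at least 1 stretch and 32.5% at least 2. Among the genes that rose and had a window, the number of stretches did not follow the size of the change. Mgarp had the fewest and the largest change, and Fam162a the most and the smallest change. The Fundc1 window held no match. That window starts from a RefSeq start 318 bases inside the outer 5′ end of the GENCODE gene, and those of Mgarp and Higd1a lie 191 and 566 bases inside it, so promoter bases further out were not read. Ak4 has 4 RefSeq starts. The window of the fourth, not printed, held a CACGTG, and the windows of the other Ak4 starts held none.

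**Figure D2:**
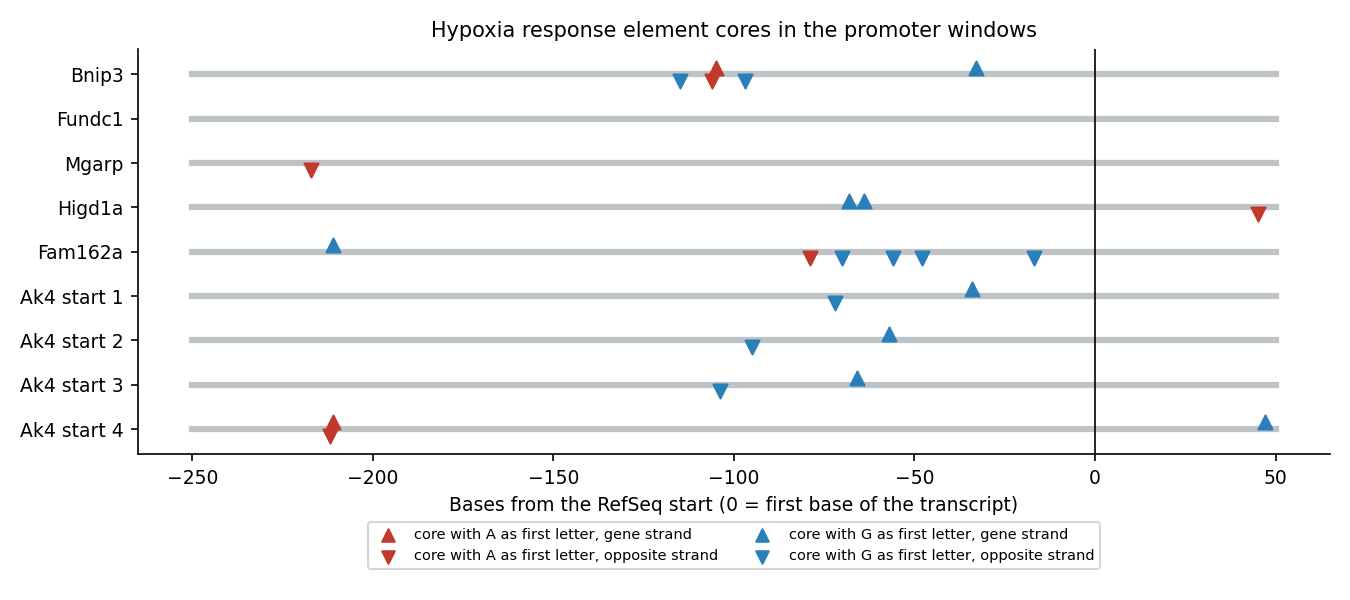
Position of each core (x axis, bases from the RefSeq start) in the windows of 6 genes, with the 4 Ak4 starts on separate lines; colour gives the core and the triangle's direction its strand. All cores of Bnip3, and all but 1 of those of Fam162a, lie between position -117 and the start, and the Fundc1 window has none.

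Bnip3 and Bnip3l, the receptor genes that HIF is known to induce, both rose, and the log2 fold change of Bnip3 exceeded that of Bnip3l by 1.88 (1.81 to 1.95 with each library left out in turn). Bnip3 (ENSMUSG00000078566; mm10 chromosome 7, 138890836 to 138909519, minus strand, 6 exon blocks) had 2085, 1329.6 and 1787 normalized counts in the PHD2-deltaT libraries, against 219 and 298 in the WT libraries. The lowest PHD2-deltaT library was thus 4.46 times the highest WT library, while values within a group differed by at most 1.57-fold. The group means were 1734 ± 381 in PHD2-deltaT and 259 ± 55.7 in WT (SD, n = 3 and 2), and the log2 fold change was 2.73 ± 0.15 (SE; adjusted p = 1.66e-08 in limma-trend). In a fit without the mean-variance trend its limma adjusted p was 0.0304. A stretch of 22.3% of its exon bases is also covered by an antisense gene, Gm45507, and 4 annotated pseudogenes match its transcripts over at least 100 bases at 90% identity or more. A long non-coding RNA gene, AC160336.1, matches them in reverse orientation over 858 bases at 98.3% identity. Part of the Bnip3 count is therefore uncertain.

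Bnip3l (ENSMUSG00000022051; mm10 chromosome 14, 66985239 to 67008877, minus strand, 10 exon blocks) had 3590.3, 2692 and 3398 normalized counts in the PHD2-deltaT libraries, against 1594 and 1975 in the WT libraries. The groups did not overlap, and the lowest PHD2-deltaT library was 1.36 times the highest WT library. The group means were 3227 ± 473 in PHD2-deltaT and 1784 ± 269 in WT (SD, n = 3 and 2), and the log2 fold change was 0.85 ± 0.11 (SE; adjusted p = 0.000154 in limma-trend). In a fit without the mean-variance trend, which called 0.832% of all genes and 3 of the 7, Bnip3l did not pass (limma adjusted p = 0.129). A transcribed copy, Bnip3l-ps, matches its transcripts over 1131 bases at 99.4% identity.

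Fundc1 encodes another outer membrane receptor, whose binding to ATG8 proteins in hypoxia is known to be set by phosphorylation of the protein. Fundc1 (ENSMUSG00000025040; mm10 chromosome X, 17556564 to 17572325, minus strand, 7 exon blocks) had 707, 664 and 618 normalized counts in the PHD2-deltaT libraries, against 612 and 689.6 in the WT libraries. The groups overlapped. The means were 663 ± 44.4 in PHD2-deltaT and 651 ± 54.8 in WT (SD, n = 3 and 2), and the log2 fold change was 0.027 ± 0.097 (SE; adjusted p = 0.946 in limma-trend). Its 95% confidence interval runs from 0.883-fold to 1.18-fold, so these libraries leave room for a change of up to that size.

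Levels of different genes can be compared only per length, so normalized counts were divided by each gene's exon length in kb. On this scale the ratio of Bnip3 to Bnip3l was 0.990, 0.842 and 0.896 in the PHD2-deltaT libraries, against 0.235 and 0.257 in the WT libraries. By these values Bnip3 was a minor receptor transcript in the WT libraries and close to Bnip3l in the PHD2-deltaT libraries. The antisense overlap of Bnip3 and the near copies of Bnip3 and Bnip3l described above make these levels and ratios uncertain too. Of the summed level per length of the 3 receptors, Bnip3 made up 40.4% ± 2.69 in PHD2-deltaT and 13.3% ± 1.04 in WT (SD, n = 3 and 2). Fundc1 made up 15.2% ± 2.45 in PHD2-deltaT and 32.5% ± 1.76 in WT (SD, n = 3 and 2), while its own levels overlapped between the groups. The sum itself was 1884 ± 295 normalized counts per kb in PHD2-deltaT and 853 ± 118 in WT (SD, n = 3 and 2). These shares follow from the values above and were not tested separately.

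**Figure D3:**
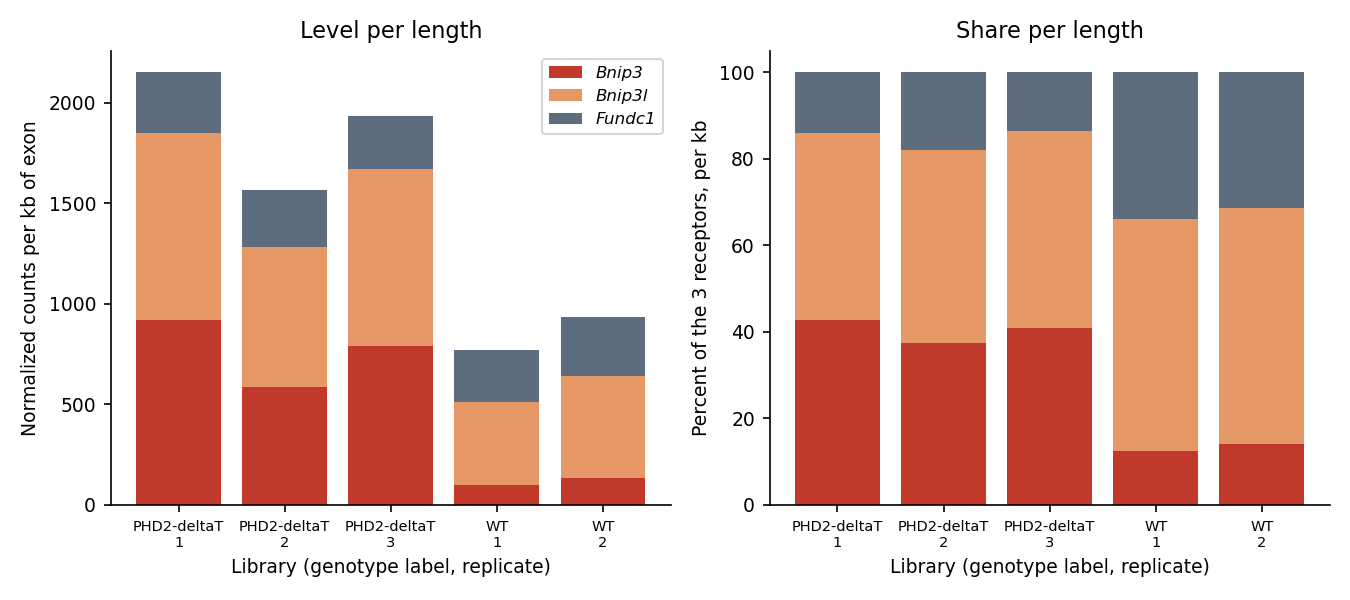
Stacked normalized counts per kb of exon (left) and shares of their sum in percent (right) for Bnip3, Bnip3l and Fundc1 in each of the 5 libraries. Bnip3 takes 37.5% to 42.8% of the sum in the PHD2-deltaT libraries, against 12.6% and 14.1% in the WT libraries.

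Of the mitochondrial proteins that are not receptors, Mgarp and Ak4 changed most. Mgarp encodes a mitochondrial membrane protein, known from rodent neurons as a hypoxia-induced factor in mitochondrial movement along microtubules. Mgarp (ENSMUSG00000037161; mm10 chromosome 3, 51388412 to 51396738, minus strand, 5 exon blocks) had 174, 88.2 and 172 normalized counts in the PHD2-deltaT libraries, against 12.1 and 2.97 in the WT libraries. The transcript was near the bottom of the measured range in both WT libraries, where the values rest on 6 and 2 inferred reads, against 136, 64 and 111 inferred reads in the PHD2-deltaT libraries. The log2 fold change was 4.27 ± 0.42 (SE; adjusted p = 7.70e-06 in limma-trend).

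The log2 fold change of Mgarp has the largest standard error of the 7. From the inferred reads the ratio of PHD2-deltaT to WT was 23.0 per read sequenced, with an exact 95% interval of 11.5 to 53.8 that covers counting error only. With WT replicate 1 left out the log2 fold change was 5.13, with WT replicate 2 left out it was 3.41, and a pseudocount of 8 gave 3.30. Mgarp was not called without the mean-variance trend (limma adjusted p = 0.0606). In the authors' deposited table, whose log2 fold changes run WT over PHD2-deltaT, Mgarp has a log2 fold change of -0.37 with an FDR of 0.00314. The same table gives -1.15 for Bnip3, -0.90 for Ak4, -0.71 for Bnip3l, -0.60 for Higd1a and -0.52 for Fam162a. As a fraction of the size in the fit above, these are 0.088 for Mgarp, 0.31 for Ak4 and 0.42 for Bnip3. For Bnip3l, Higd1a and Fam162a the fractions are 0.83, 0.89 and 0.92, so a cutoff on size does not mean the same in both. The reason for the difference was not tested. By the FDR of the authors' deposited table alone (below 0.05), 3.95% of 11339 genes and 6 of the 7 pass. With a size above 0.5 on the log2 scale of the authors' deposited table as well, 1.33% of genes and 5 of the 7 pass, and Mgarp, which has the largest ratio of means of the 7, is the gene lost.

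Ak4 encodes an adenylate kinase of the mitochondrial matrix, one of the enzymes that exchange phosphate groups between adenine and guanine nucleotides. Ak4 (ENSMUSG00000028527; mm10 chromosome 4, 101419277 to 101466995, plus strand, 7 exon blocks) had 2683, 2245 and 2223 normalized counts in the PHD2-deltaT libraries, against 225 and 423 in the WT libraries. The PHD2-deltaT libraries lay close together, within 1.21-fold, whereas the 2 WT libraries differed by 1.88-fold. The log2 fold change was 2.94 ± 0.17 (SE; adjusted p = 3.00e-08 in limma-trend). Without the mean-variance trend its limma adjusted p was 0.0304. A processed pseudogene, Ak3l2-ps, matches Ak4 transcripts over 672 bases at 99.6% identity, so its reads and those of Ak4 may not have been fully separated.

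Ak3, the other adenylate kinase of the matrix, and nuclear Ak6 did not pass the test. The log2 fold change was -0.11 for Ak3 (limma-trend adjusted p = 0.630) and 0.13 for Ak6 (limma-trend adjusted p = 0.540). Ak4 was above Ak3 per kb in the PHD2-deltaT libraries (478 to 578 against 363 to 416 normalized counts per kb for Ak3) and below it in the WT libraries (48.5 and 91.1 against 411 and 431).

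Higd1a and Fam162a were abundant in both groups and rose less, with little spread. Higd1a encodes a small inner membrane protein that associates with respiratory chain complexes and is known to protect cells in hypoxia. Higd1a (ENSMUSG00000038412; mm10 chromosome 9, 121848563 to 121858362, minus strand, 5 exon blocks) had 2500.1, 2168 and 2468 normalized counts in the PHD2-deltaT libraries, against 1458 and 1535 in the WT libraries. The log2 fold change was 0.67 ± 0.080 (SE; adjusted p = 7.31e-05 in limma-trend). It was not called without the mean-variance trend (limma adjusted p = 0.0652). An antisense gene, Gm47112, covers 22.5% of its exon bases, and 2 pseudogenes match its transcripts.

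Fam162a encodes a mitochondrial protein described in human cells as a HIF-1-responsive promoter of cell death. Fam162a (ENSMUSG00000003955; mm10 chromosome 16, 36043761 to 36071594, minus strand, 6 exon blocks) had 3398, 3196 and 3286 normalized counts in the PHD2-deltaT libraries, against 2211 and 2253 in the WT libraries. Values within a group differed by at most 1.06-fold, the tightest of the 7 genes, and the gap between the groups was 1.42-fold. The log2 fold change was 0.56 ± 0.070 (SE; adjusted p = 9.58e-05 in limma-trend). Without the mean-variance trend its limma adjusted p was 0.0468. Wdr5b, a gene on the opposite strand, shares 19.8% of its exon bases, and whether counting used strand is not given in the sources used here.

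**Figure D4:**
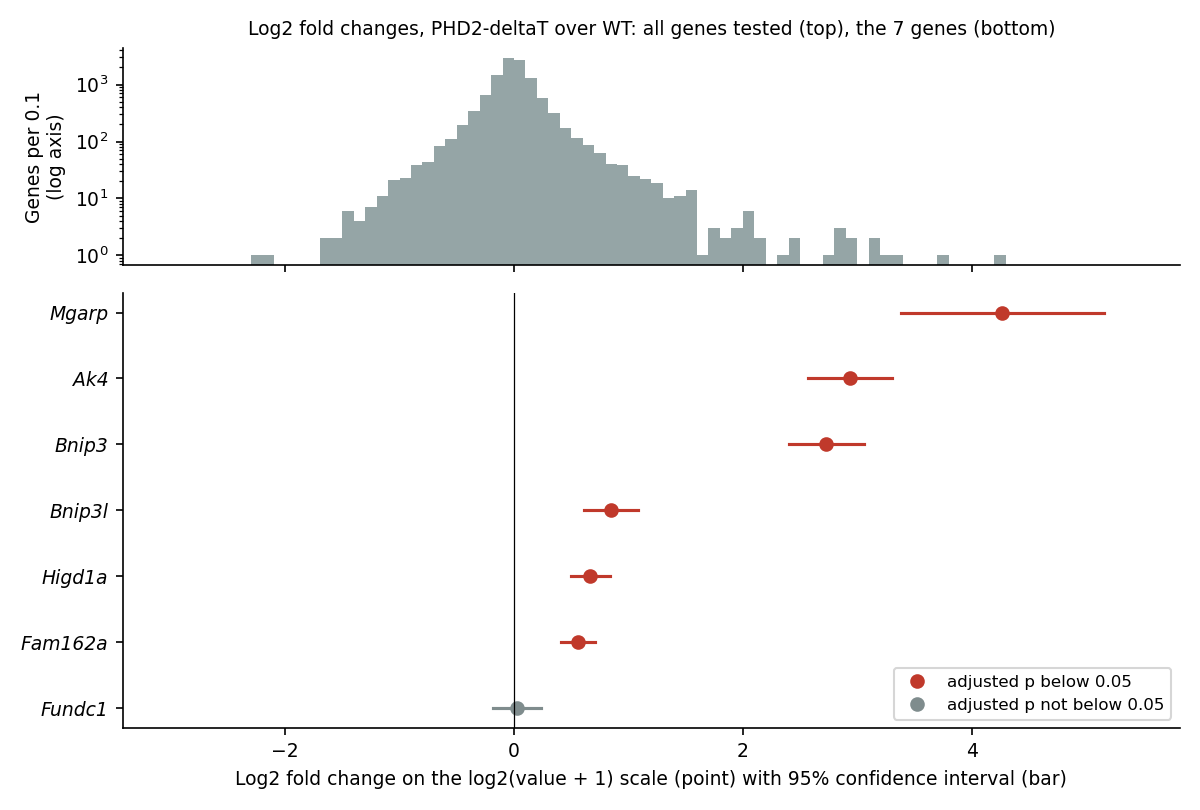
Log2 fold changes, PHD2-deltaT over WT, for all 11534 genes tested (histogram, log axis) and for the 7 genes (points with 95% confidence intervals, ordered by size). Mgarp, Ak4 and Bnip3 lie in the far upper tail at 4.27, 2.94 and 2.73, and the interval of Fundc1 spans 0.

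Per kb of exon, Fam162a was the most abundant of the 7 transcripts in every library, at 3760 to 3998 normalized counts per kb in the PHD2-deltaT libraries and 2601 to 2651 in the WT libraries. Mgarp was the least abundant in every library, at 42.7 to 84.0 normalized counts per kb in PHD2-deltaT and 1.44 to 5.84 in WT. Between them the order of levels differed between the groups. In the PHD2-deltaT libraries Bnip3l, Bnip3 and Higd1a followed Fam162a and changed places from library to library, with means of 836 ± 123, 766 ± 168 and 782 ± 60.4 normalized counts per kb (SD, n = 3), before Ak4 and Fundc1. In the WT libraries Higd1a and Bnip3l followed and changed places, with means of 492 ± 17.9 and 462 ± 69.8 normalized counts per kb (SD, n = 2), before Fundc1, Bnip3 and Ak4. Fundc1 thus stood above Bnip3 and Ak4 in both WT libraries and below them in all 3 PHD2-deltaT libraries.

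PHD2-deltaT replicate 2 was the lowest of the 3 PHD2-deltaT libraries for 5 of the 7 genes, the exceptions being Ak4 and Fundc1. Among all genes tested it was the lowest for 35.6%, and among genes called higher for 49.3%. WT replicate 1 was below WT replicate 2 for 6 of the 7 genes, Mgarp being the exception, against 49.7% of all genes tested.

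The genes whose profiles over the 5 libraries were most like those of the 6 higher genes were searched among well-measured genes (mean of at least 50, predicted genes left out), by the root mean square difference of centred log2 values. Bnip3 and Ak4 lay close to each other (0.24), and next to Bnip3 came the aldolase gene Aldoc (0.25) and Egln3 (0.28), which encodes the HIF-inducible sister enzyme of PHD2. Next to Ak4 stood the lactate exporter gene Slc16a3 (0.23). Bnip3l was closest to Pdk1 (0.068), Galnt9 (0.071) and Ddit4 (0.073); Pdk1 encodes a matrix kinase that inhibits pyruvate dehydrogenase and Ddit4 an inhibitor of mTORC1. Higd1a was closest to Jak3 (0.023), Plac8 (0.037) and Themis (0.048), and Fam162a to Prelid1 (0.018), a lipid carrier of the mitochondrial intermembrane space, H2-Q6 (0.021) and Cln6 (0.045). Mgarp had no close neighbour, the nearest being the MHC class II gene H2-Ab1 (0.76), Egln3 (0.79) and Apbb1 (0.81). These distances describe 5 libraries in 2 groups, so genes with a like fold change come out close.

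To see whether the change reached further into mitophagy and mitochondrial upkeep, 101 other genes in 9 lists were read in the same fit, of which 89 were tested. Of these, 3 were higher and 0 lower (limma-trend; 11 had an unadjusted p below 0.05). Without PHD2-deltaT replicate 2, 5 were higher and 1 lower, without WT replicate 2, 1 was higher and 0 lower, and without the mean-variance trend 0 were called in either direction. The share called higher with all libraries, 3.37%, is near the 2.97% of all genes called higher. The median log2 fold change was 0.0053, against -0.0063 over all genes tested and 0.85 over the 7 genes. Both the 7 genes and the lists were chosen with earlier results of these data known, so these medians are descriptions.

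The other routes of mitophagy held no call in this fit. Of 10 other receptors and adaptors 0 passed (2 had an unadjusted p below 0.05), and the largest value was 0.48 for Nlrx1, followed by the ubiquitin-binding adaptor gene Sqstm1 at 0.18 (limma-trend adjusted p = 0.227 and 0.179). Of 11 genes of the PINK1-Parkin route, which marks damaged mitochondria with ubiquitin, 0 passed (1 had an unadjusted p below 0.05). Pink1 itself averaged 1698 ± 278 normalized counts in PHD2-deltaT and 1354 ± 89.9 in WT (SD, n = 3 and 2), a log2 fold change of 0.32 (limma-trend adjusted p = 0.130). Without PHD2-deltaT replicate 2 Pink1 was called (0.41, limma-trend adjusted p = 0.0322). Of the 5 ATG8-family genes, whose products the receptors bind, 0 passed (0 had an unadjusted p below 0.05), with Gabarapl1 at -0.17 and Map1lc3a at 0.34.

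Among 10 regulators of the receptors, Bcl2l1 alone was called. Its product BCL-XL restrains cell death and is known to inhibit FUNDC1-dependent mitophagy. Bcl2l1 averaged 4576.5 ± 301 normalized counts in PHD2-deltaT and 3462.5 ± 287 in WT (SD, n = 3 and 2), a log2 fold change of 0.40 (limma-trend adjusted p = 0.00557). It was not called without WT replicate 2 (limma-trend adjusted p = 0.151) or without the mean-variance trend (limma adjusted p = 0.190). Fbxl4 and Pptc7, whose products are known to keep BNIP3 and NIX protein low, had log2 fold changes of 0.10 and 0.058.

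The lists of mitochondrial shape, transport and mass held no call in this fit. Of 18 genes of fission, fusion and inner membrane shape 0 passed (2 had an unadjusted p below 0.05), among them the fission adaptor gene Fis1 at 0.16. Of 9 genes of transport along microtubules 0 passed (0 had an unadjusted p below 0.05): the motor adaptor genes Trak1 and Trak2 had log2 fold changes of -0.014 and -0.14, beside the 4.27 of Mgarp. Of 16 markers of mitochondrial mass 0 passed (1 had an unadjusted p below 0.05), and their log2 fold changes had a median of 0.031. The outer membrane channel gene Vdac1 had 0.16 and the nucleotide carrier gene Slc25a5 -0.19; without PHD2-deltaT replicate 2 Slc25a5 was called lower (-0.28, limma-trend adjusted p = 0.0451). Of 5 tested relatives of the 7 genes 0 passed (0 had an unadjusted p below 0.05), including Fundc2 at -0.034 and Higd2a at 0.089.

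Other HIF-linked genes of mitochondrial metabolism held the 2 remaining calls among 8 tested. Pdk1 averaged 5861 ± 737 normalized counts in PHD2-deltaT and 3414 ± 271 in WT (SD, n = 3 and 2), a log2 fold change of 0.77 (limma-trend adjusted p = 7.27e-05). Lonp1, which encodes a matrix protease, averaged 5222.5 ± 309 normalized counts in PHD2-deltaT and 4141 ± 13.3 in WT (SD, n = 3 and 2), a log2 fold change of 0.33 (limma-trend adjusted p = 0.0122). Lonp1 was not called without WT replicate 1 (limma-trend adjusted p = 0.0983) or without WT replicate 2 (0.107), and neither gene was called without the mean-variance trend (limma adjusted p = 0.0994 for Pdk1 and 0.197 for Lonp1).

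**Figure D5:**
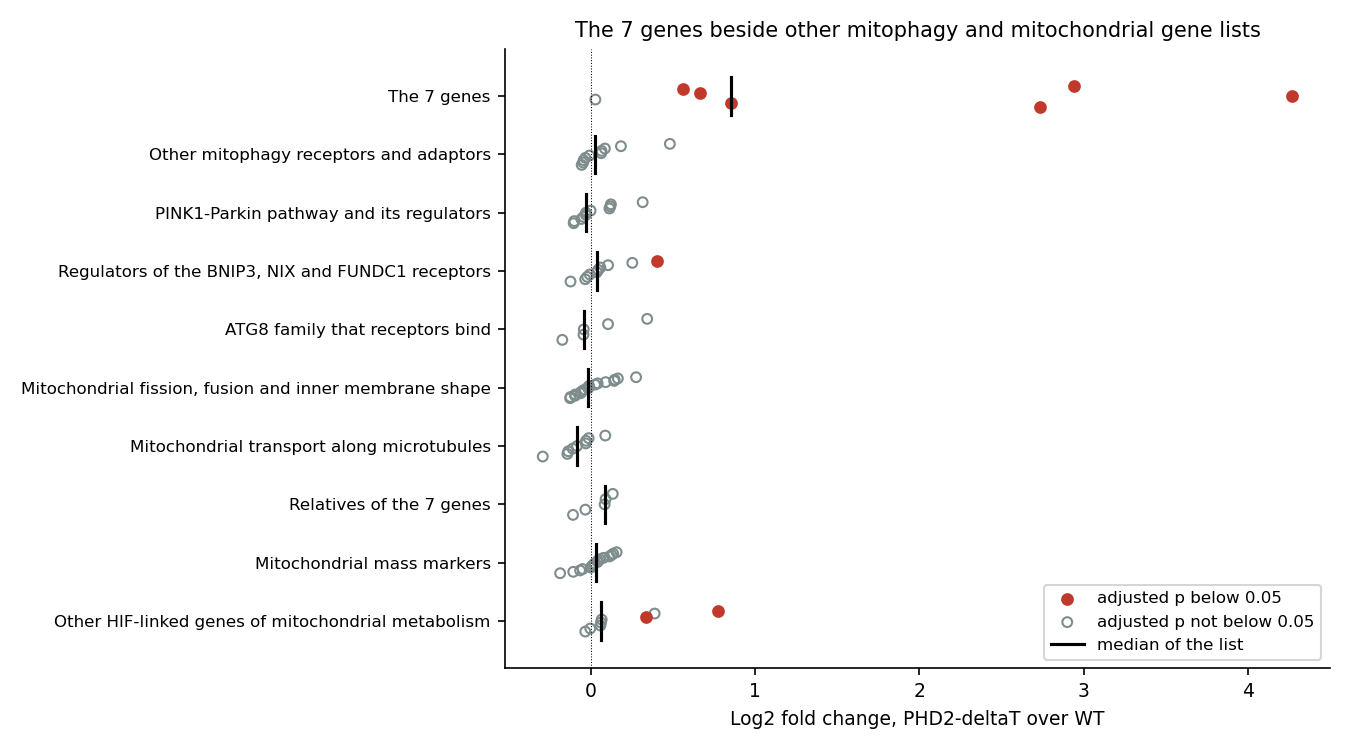
Log2 fold changes, PHD2-deltaT over WT, of the 7 genes (top line) and of 9 lists of other mitophagy and mitochondrial genes; filled points passed an adjusted p of 0.05 and the black bar is each list's median. Every list median lies between -0.085 and 0.084, against 0.85 for the 7 genes.

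Markers of other cells were read beside these results. Of 10 myeloid and dendritic markers 3 were tested, with summed normalized counts of 118 to 146 in the PHD2-deltaT libraries and 84.6 to 86.2 in the WT libraries, and Itgax was higher (log2 fold change 1.06, limma-trend adjusted p = 0.00752; 0.0585 without WT replicate 1). Of 8 B cell markers 3 were tested, summing to 5180 to 5950 in PHD2-deltaT and 5711 to 6192 in WT, nearly all of it Ighm. Of 4 natural killer markers 2 were tested, summing to 4659 to 5482 in PHD2-deltaT and 3339 to 3615 in WT, nearly all of it Eomes, which CD8 T cells also express. Eomes was higher (log2 fold change 0.51, limma-trend adjusted p = 0.000858; limma adjusted p = 0.133 without the mean-variance trend). Klrb1c, the more specific marker, averaged 15.0 ± 5.51 normalized counts in PHD2-deltaT and 4.99 ± 1.36 in WT (SD, n = 3 and 2), a log2 fold change of 1.38 that did not pass (limma-trend adjusted p = 0.189). Of 4 CD4 T cell markers 3 were tested, summing to 92.9 to 109 in PHD2-deltaT and 65.4 to 66.4 in WT. Of the 8 CD8 T cell markers Thy1 and Cd2 were higher, by 0.57 and 0.39 on the log2 scale; neither passed without the mean-variance trend, nor Cd2 without WT replicate 2 (limma-trend adjusted p = 0.0929). Cd79a, Cd4, Lyz2, Csf1r, Ncr1 and the erythroid and platelet markers were looked for but not found in the deposited table, so they were not analysed here. The MHC class II gene H2-Ab1, nearest in profile to Mgarp, was not on these marker lists. It had 123, 85.1 and 155 normalized counts in the PHD2-deltaT libraries, against 21.1 and 10.9 in the WT libraries. Its log2 fold change was 2.87 (limma-trend adjusted p = 1.81e-05). The part of other cells in the changes of the 7 genes was not tested.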

How the data were processed

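RNA of sorted mouse CD8 T cells was sequenced in 3 PHD2-deltaT and 2 WT libraries. The tools named in the submitters' processing notes are HTSeq 0.9.1, STAR 2.5.3 and Trimmomatic 0.36, with the build mm10. The scaling of counts, the use of strand and the comparison tool were not given in the sources used here. Deposited by the authors were a normalized signal per gene and library (normalized counts per the file names), log2 mean expression and log2 fold changes (WT over PHD2-deltaT, from the library columns), and adjusted p-values headed FDR.

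Values in each library are whole multiples of 1 step (tolerance 1e-06). The model for these whole numbers was a per-library constant times the reads, taken up to the next integer (1.30, 1.35 and 1.55 in PHD2-deltaT, 1.85 and 1.36 in WT), which accounted for 99.1% to 100.0% of values up to 1000, against 54.1% to 77.0% by chance. The reads are inferences, and no count test was run on them; the intervals given from them cover counting error only. Of 11564 gene names, 17 were date serials and were restored from gene IDs.

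The model had genotype alone and a mean-variance trend, on log2(value + 1), and ran under R 4.3.3 with limma 3.58.1 (3 residual and 12.8 prior degrees of freedom); fold changes on this scale understate those of low genes. Exon lengths, positions and overlaps came from GENCODE M21 (GRCm38, the assembly of mm10), copies from BLAST 2.17.0 and promoters from RefSeq. Replicate numbers follow the order of the labels and pair nothing. Alternatives were 2 pseudocounts, 2 filters, 2 scalings, 3 variance models and each library left out. Named beside the 7 genes are Egln1, called genes of each list (or the 2 with the smallest p), 3 like profiles per called gene, and some members of lists and markers picked for their role after values were seen. The 7 genes and the lists were chosen with earlier results of these data known. Figures were drawn with matplotlib 3.10.9 and tables made with pandas 2.3.3 under Python 3.11.15.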

Additional observations from a re-analysis of the deposited data

How the results depend on the processing

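All 14 alternatives kept the direction of the 6 genes called, and Bnip3, Ak4 and Fam162a passed in each of them. Without the mean-variance trend 96 genes were called in place of 461, and 3 of the 7 genes in place of 6: Bnip3l (log2 fold change 0.85), Mgarp (4.27) and Higd1a (0.67) did not pass there, and the cause was not tested. Bnip3, Ak4 and Fam162a passed there by less, at limma adjusted p = 0.0304, 0.0304 and 0.0468. With the robust variance model the limma-trend adjusted p was 0.00306 for Bnip3, 0.0318 for Ak4 and 3.32e-05 for Fam162a. The size of the p-values thus depends on the variance model. Leaving out 1 library at a time gave 244 (without WT replicate 2) to 523 called genes, with 6 of the 7 genes called each time; fewer samples were fitted. Fundc1 ranged from -0.059 to 0.11 across those fits and was negative without PHD2-deltaT replicate 1 and without WT replicate 1, never passing. With the longest protein-coding transcript as gene length, an alternative chosen after seeing the data, the Bnip3 to Bnip3l ratio per length was 0.990 in PHD2-deltaT and 0.268 in WT, against 0.909 and 0.246 with all exons. No paired analysis was possible because the labels give no replicate numbers. Depth limits Mgarp most, at 6 and 2 inferred reads in WT.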
